A study of Saccharomyces cerevisiae with 11 samples.

Results

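The genes described here encode abundant enzymes of glycolysis, from aldolase onward, and of the fermentation step that follows it in budding yeast, Saccharomyces cerevisiae. The promoters of 2 of them are used on the plasmids of the study. The genes were chosen by gene symbol: TDH1, TDH2, TDH3, PGK1, FBA1, TPI1, ENO1, ENO2, CDC19 and PDC1. Of these 10 symbols 9 had an annotated probe set, each gene a single one, out of 5449 S. cerevisiae genes tested. TDH2 (YJR009C) had none and is named only. Affymetrix arrays gave the RNA levels of 4 samples of yeast with CFTR and 7 of yeast with a control vector. The CFTR yeast carried pRS426PPGK-CFTR-3HA, a plasmid in which a PGK promoter drives the human cystic fibrosis transmembrane conductance regulator, a chloride channel, with an HA tag. The control yeast carried pRSGPD426, a plasmid with a GPD promoter. The labels mark all 7 control arrays, and none of the 4 CFTR arrays, as a re-analysis, so that this mark and CFTR cannot be told apart. All the yeast was in mid log growth, at 26 degrees under selection for the plasmid, and the host strain is not given in the sources used here. The plasmids therefore differ in their promoter as well as in the channel, and the arrays cannot tell the effects of these apart.

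Glycolysis splits glucose into pyruvate and yields ATP, and growing yeast sends most of that pyruvate on to ethanol. The enzymes are among the most abundant proteins of the cell, and their genes are driven strongly by the factors Rap1, Gcr1 and Gcr2 together with Tye7. The strength of these promoters is why they are used on expression plasmids. The GPD promoter is that of TDH3, a glyceraldehyde-3-phosphate dehydrogenase gene, and should not be confused with GPD1 and GPD2, genes of glycerol synthesis. The PGK promoter is that of PGK1, the gene of phosphoglycerate kinase. Both plasmids hold further copies of a promoter that the chromosome also carries, but the arrays read the transcripts of the chromosomal genes and not the promoters.

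Values are probe set intensities that the deposited table gives relative to each array's own mean, written here as log2, so that a level of 0 is the mean of an array and a difference of 1 is a doubling. Probe sets that match no S. cerevisiae gene had a median level of -3.89 and the matched ones of -0.22. The labels do not tie the arrays to separate cultures, and the p-values therefore rest on a spread that may be technical. Some vector arrays stood apart from the rest. Vector replicates 1 and 2 were nearly copies of each other (SD of their log2 difference across genes 0.11) and had a dimmer bright end, with a 99th percentile of 3.13 and 3.07 against 3.40 to 3.51 on the other 9 arrays. Vector replicates 5, 6 and 7 were also nearly copies of one another (SD of the difference 0.10 to 0.13). Vector replicate 3 lay closer to the CFTR arrays than to its own group (SD of the difference 0.16 to 0.28 against CFTR and 0.38 to 0.52 against vector arrays). By the number in their sample codes the vector arrays form 2 ranges, codes 3 to 5 (replicates 1 to 3) and codes 11 to 14 (replicates 4 to 7), with the CFTR arrays at codes 7 to 10 between them, so that code and CFTR cannot be told apart. The plasmid marker URA3 was present in both groups, at 3.51 to 3.70 in CFTR arrays. In the vector arrays it was at 3.37 to 3.92 in codes 3 to 5. In codes 11 to 14 it was at 2.79 to 3.10, below every CFTR array. Of 14 cytosolic chaperone genes, 5 rose in CFTR with all arrays counted equally (limma, adjusted p under 0.05; 0.918% of all genes passed). This count was 0 against codes 3 to 5, where 0.0184% of all genes passed, and 13 against codes 11 to 14, where 43.9% did. It was 12 without vector replicate 3, where 9.56% of all genes passed, and 14 with array weights, where 60.7% did. The mean level of the chaperone genes was 2.41 to 2.50 on the CFTR arrays and 1.53 to 2.25 on the vector arrays. The part of this level in the results below was not tested.

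None of the 9 genes passed the test between CFTR and vector yeast when all 11 arrays counted equally, and 5 fell with the array weights described below. With equal arrays 0 of 9 genes passed by limma at an adjusted p under 0.05, where 0.918% of all genes tested did. At an unadjusted p under 0.05 the count was also 0 of 9, beside 18.2% of all genes. Their log2 differences, CFTR minus vector, lay between 0.04 and 0.13 with a median of 0.08, against a median of -0.04 over all genes. All 9 were above 0, and the 95% intervals of all 9 included 0. The vector arrays spread far more widely than the CFTR arrays, because replicates 1 and 2 were the lowest of all 11 arrays in each of the 9 genes. That position was not confined to these genes. Both arrays were below the other 9 in 13.3% of all genes and above them in 47.8%. Replicates 1 and 2 also averaged lower than replicates 3 to 7 in 99 of the 100 brightest other genes.

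**Figure D1:**
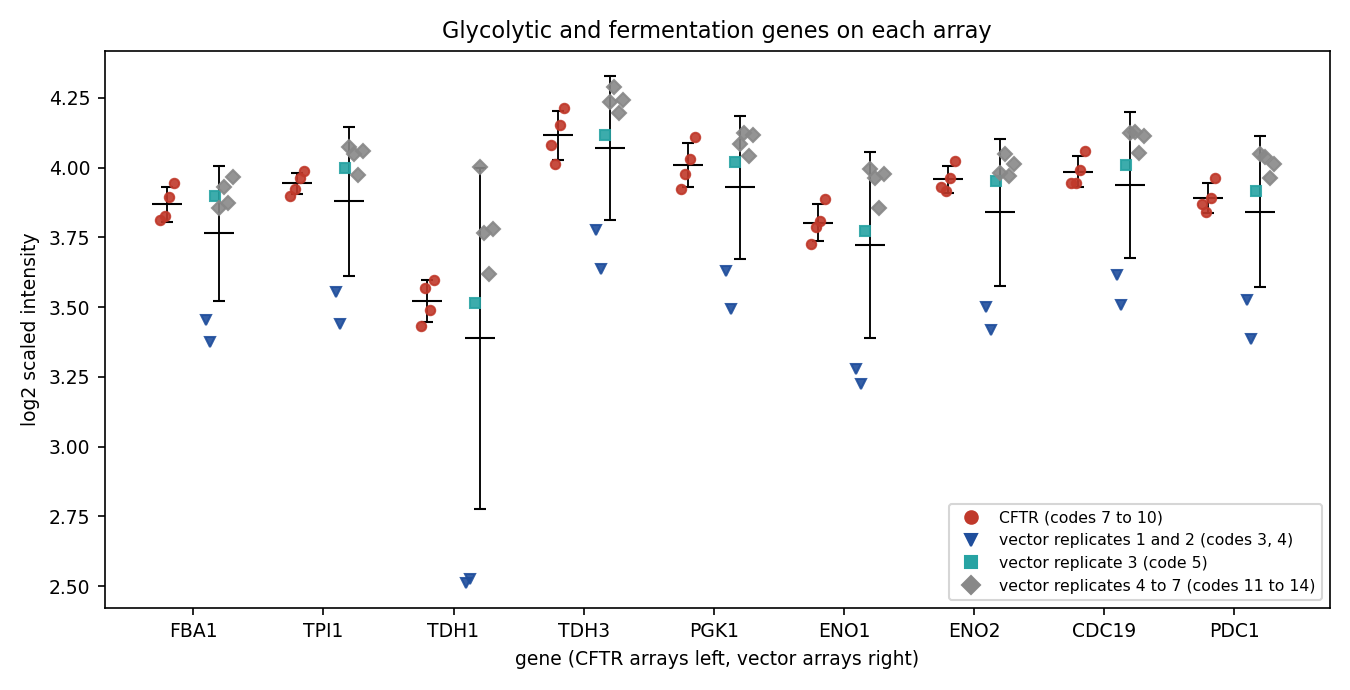
Level of each gene (log2 scaled intensity, vertical axis) on the 4 CFTR arrays, left of each gene name, and the 7 vector arrays, right of it. Points are arrays, bars are the group mean and SD. Vector replicates 1 and 2 sit below all other arrays in every gene, and the CFTR arrays lie among the remaining vector arrays or just under them.

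TDH3 (YGR192C), the source of the GPD promoter, encodes the main glyceraldehyde-3-phosphate dehydrogenase. Its level was 4.08, 4.01, 4.15 and 4.21 in CFTR replicates 1 to 4. In the vector group replicates 1 and 2 stood at 3.78 and 3.64, and replicates 3 to 7 at 4.12, 4.24, 4.29, 4.20 and 4.24. The CFTR arrays thus lay inside the range of the vector arrays, above the 2 low ones and under or among the other 5. The mean ± SD was 4.12 ± 0.09 over 4 CFTR arrays and 4.07 ± 0.26 over 7 vector arrays, a log2 difference of 0.04 (SE 0.12, 95% interval -0.23 to 0.32; limma, adjusted p = 0.88). As a ratio the interval runs from 0.855 to 1.24, so that changes of TDH3 beyond these bounds were outside it. The TDH3 probe set was the brightest on 10 of 11 arrays and ranked 2 on CFTR replicate 2. The deposited table holds no saturation flag, so whether signals this bright were limited by the scanner was not tested. TDH2 and TDH3 are near-identical in sequence, and the TDH3 value may hold signal from both.

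PGK1 (YCR012W), the source of the promoter that drives CFTR, encodes the enzyme of the ATP-yielding step after glyceraldehyde-3-phosphate dehydrogenase. It stood at 3.92, 3.98, 4.03 and 4.11 in CFTR replicates 1 to 4. The vector arrays had 3.63 and 3.49 in replicates 1 and 2 and 4.02, 4.08, 4.12, 4.04 and 4.12 in replicates 3 to 7. The groups overlapped, with the highest CFTR array near the top of the vector arrays. The mean ± SD was 4.01 ± 0.08 for CFTR (n = 4) and 3.93 ± 0.26 for vector (n = 7), a log2 difference of 0.08 (SE 0.12, 95% interval -0.19 to 0.35; limma, adjusted p = 0.77). Its probe set ranked between 3 and 7 among the 10715 of each array.

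TDH1 (YJL052W) encodes a further glyceraldehyde-3-phosphate dehydrogenase, known as the isoform of stressed and slowly growing cells, and was the most variable of the 9 genes. It had 3.43, 3.57, 3.49 and 3.60 in CFTR replicates 1 to 4. Vector replicates 1 and 2 had 2.51 and 2.53, the lowest of the 11 arrays, and replicates 3 to 7 had 3.51, 4.002, 3.76, 3.62 and 3.78. The CFTR arrays sat between these sets, together with vector replicate 3. The log2 difference between CFTR (3.52 ± 0.08, SD, n = 4) and vector (3.39 ± 0.61, SD, n = 7) was 0.13, with an SE of 0.28 and a 95% interval of -0.47 to 0.73 (limma, adjusted p = 0.84). The SD of TDH1 over the 11 arrays was 0.48, larger than that of 93.4% of the 4111 genes above the background limit of -1.17. Without vector replicates 1 and 2 the SD was 0.18, larger than that of 61.2% of these genes.

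FBA1 (YKL060C), fructose-bisphosphate aldolase, and TPI1 (YDR050C), triose phosphate isomerase, act just before glyceraldehyde-3-phosphate dehydrogenase. FBA1 had 3.81, 3.83, 3.89 and 3.95 in CFTR replicates 1 to 4, against 3.45 and 3.37 in vector replicates 1 and 2 and 3.85 to 3.97 in the other 5. Its log2 difference was 0.10 (SE 0.12; limma, adjusted p = 0.67). TPI1 had 3.90, 3.92, 3.96 and 3.99 in CFTR, against 3.55 and 3.44 in vector replicates 1 and 2 and 3.97 to 4.08 in the others, a difference of 0.06 (SE 0.13; limma, adjusted p = 0.82). In both genes the CFTR arrays overlapped vector replicates 3 to 7 and stood above replicates 1 and 2.

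The enolases ENO1 (YGR254W) and ENO2 (YHR174W) catalyse the same step and are close in sequence, so that their probe sets may share signal. ENO2, the enolase known to be induced by glucose, had 3.93, 3.91, 3.96 and 4.02 in CFTR replicates 1 to 4, against 3.50 and 3.42 in vector replicates 1 and 2 and 3.95 to 4.05 in replicates 3 to 7. Over the 9 arrays without vector replicates 1 and 2 its SD was 0.04, smaller than in all but 0.851% of genes above the background limit. ENO1 had 3.73, 3.79, 3.81 and 3.89 in CFTR, against 3.28 and 3.22 in vector replicates 1 and 2 and 3.77 to 3.99 in the others. The log2 differences were 0.08 for ENO1 (SE 0.15; limma, adjusted p = 0.82) and 0.12 for ENO2 (SE 0.12; limma, adjusted p = 0.65), the lowest adjusted p among the 9 genes.

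CDC19 (YAL038W) encodes the main pyruvate kinase, and PDC1 (YLR044C) the main pyruvate decarboxylase, which commits pyruvate to ethanol. CDC19 had 3.95, 3.95, 3.99 and 4.06 in CFTR replicates 1 to 4, against 3.61 and 3.51 in vector replicates 1 and 2 and 4.01 to 4.13 in the other 5. PDC1 had 3.87, 3.84, 3.89 and 3.96 in CFTR, against 3.53 and 3.38 in vector replicates 1 and 2 and 3.92 to 4.05 in the other 5. Each gene had a log2 difference of 0.05 (SE 0.12 for CDC19 and 0.13 for PDC1; limma, adjusted p = 0.86 and 0.87). In neither were the CFTR arrays separate from the vector arrays.

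The direction of the difference turned with the choice of vector arrays in all 9 genes. Against codes 3 to 5 alone the 9 log2 differences were 0.27 to 0.67 (median 0.29, all genes -0.15), and 0 of 9 passed (limma, adjusted p = 0.18 for each), where 0.0184% of all genes passed. That set of 3 vector arrays holds both low ones. Against codes 11 to 14 alone the differences were -0.27 to -0.04 (median -0.12, all genes 0.04), and 6 of 9 genes fell. Over all genes 43.9% passed in that comparison, and 17% of the genes passed as lower. These comparisons share the 4 CFTR arrays.

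The 6 genes lower in CFTR than in vector codes 11 to 14 were TDH1, TDH3, TPI1, ENO1, CDC19 and PDC1. TDH1 averaged 3.52 ± 0.08 in CFTR and 3.79 ± 0.16 in these vector arrays (SD, n = 4 each), a log2 difference of -0.27 (SE 0.08; limma, adjusted p = 0.021). It was the only member whose CFTR arrays lay wholly below the vector arrays of codes 11 to 14, as 15.9% of all genes did. ENO1 differed by -0.14 (SE 0.04; limma, adjusted p = 0.027), TDH3 by -0.13 (SE 0.04; limma, adjusted p = 0.045) and PDC1 by -0.12 (SE 0.03; limma, adjusted p = 0.019). CDC19 (-0.12; limma, adjusted p = 0.020) and TPI1 (-0.10; limma, adjusted p = 0.041) made up the rest. PGK1, at -0.08 (95% interval -0.18 to 0.01; limma, adjusted p = 0.15), FBA1, at -0.04, and ENO2, at -0.04, did not pass. These falls are small: the ratio of CFTR to vector was 0.83 for TDH1 and 0.905 to 0.935 for the other 5.

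With vector replicates 1 and 2 left out, a choice made after seeing the data, the 9 differences were -0.21 to -0.04 (median -0.10) and 0 of 9 passed (limma, adjusted p between 0.072 and 0.49), where 18.4% of all genes passed. Vector replicate 3, which is then among the controls, lay inside the range of the CFTR arrays in 8 of the 9 genes, the exception being TPI1. With weights that limma estimates for each array, all 11 arrays were kept but counted unequally. There 5 of the 9 genes fell, TDH1, TDH3, ENO1, CDC19 and PDC1 (limma, adjusted p between 0.014 and 0.034). The 9 weighted differences, -0.20 to -0.04 (median -0.11), lay near those against codes 11 to 14 alone. The weights of the single arrays are not given here. Over all genes 60.7% passed with these weights, 25.1% of the genes as lower.

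**Figure D2:**
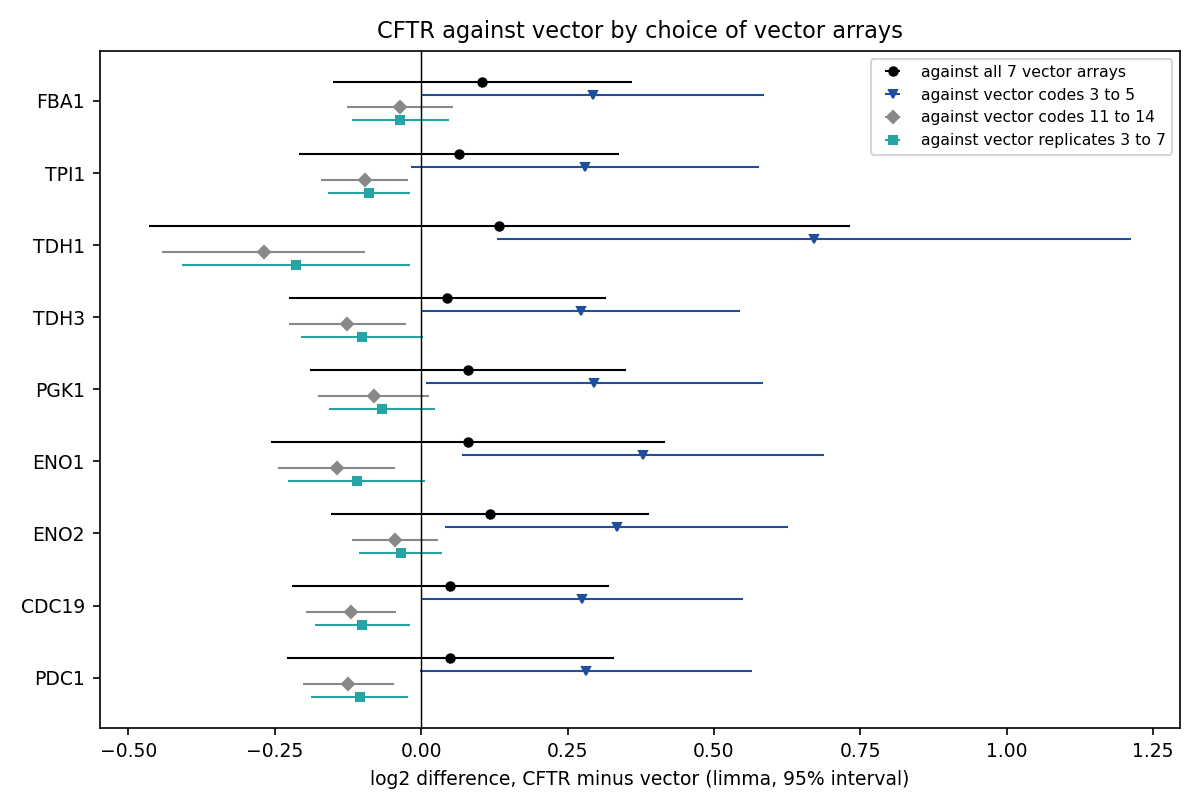
Log2 difference of CFTR minus vector (horizontal axis, limma with 95% interval) for each gene, against all 7 vector arrays, codes 3 to 5, codes 11 to 14, and replicates 3 to 7. The differences are 0.27 to 0.67 against codes 3 to 5 and -0.27 to -0.04 against codes 11 to 14.

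The 9 genes moved with the bright end of each array, of which they are part. Apart from TDH1, each ranked 57 or better among the 10715 probe sets of every array. This likeness was therefore largely given beforehand. They made up 1.22% to 1.33% of the summed intensity on the CFTR arrays, 0.926% and 0.863% on vector replicates 1 and 2, and 1.27% to 1.39% on vector replicates 3 to 7. In vector replicates 1 and 2 the 9 genes were lower than in replicates 3 to 7 by 0.49 to 1.22 (log2, median difference -0.53). The 100 brightest other genes had a median difference of -0.45 between the same arrays, with 99 of 100 below 0, while all genes had 0.27. After quantile normalization, which gives every array the same distribution of values, vector replicates 1 and 2 stayed below the other 9 arrays in 2 of the 9 genes, TDH1 and ENO1, as they did in 22% of all genes on that scale. There TDH1 was at 2.67 and 2.70 on these arrays and at 3.42 or more on the others, and ENO1 at 3.58 and 3.60 against 3.69 or more. The other 7 genes were among the 21 brightest probe sets of every array. Quantile normalization holds such values nearly fixed, so it cannot show whether these 7 stood apart. On that scale TDH3 was at 4.09 on 10 arrays and 4.03 on CFTR replicate 2, a ceiling that follows from being the brightest probe set, and its difference was -0.015 (limma, adjusted p = 0.62).

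**Figure D3:**
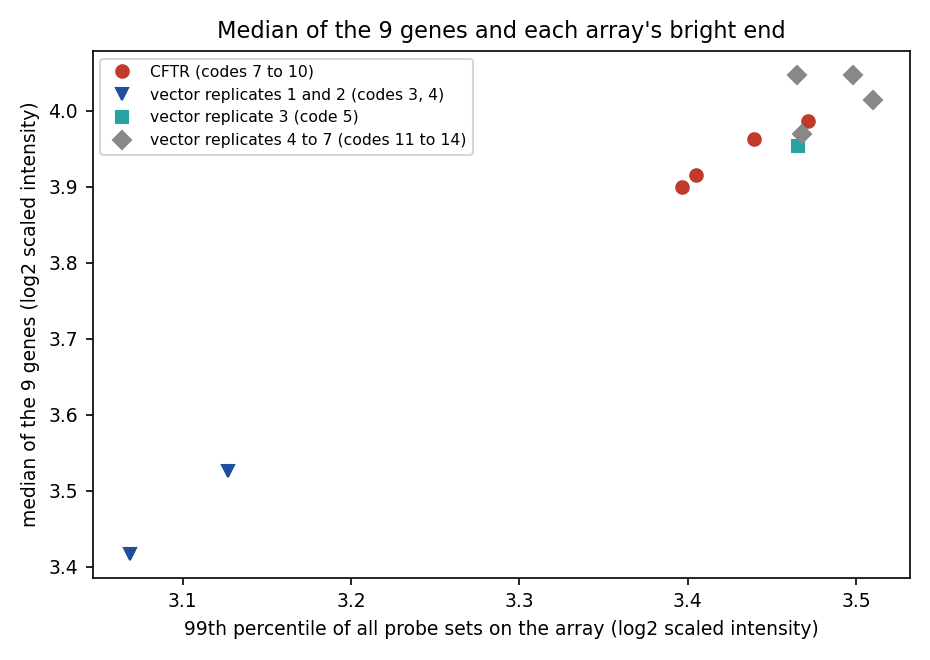
Median level of the 9 genes (log2 scaled intensity, vertical axis) against the 99th percentile of all probe sets of the same array (log2 scaled intensity, horizontal axis), 1 point per array. Vector replicates 1 and 2 lie apart at 3.13 and 3.07 on the horizontal axis, and the other 9 arrays lie at 3.40 to 3.51. The 9 genes are themselves among the bright probe sets, so that the 2 axes are not independent.

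Differences between genes on the same array do not depend on the scaling, and 3 pairs were compared in this way. The size of such a difference is not a ratio of transcripts, since probe sets differ in brightness. PGK1 minus TDH3, the pair of promoter sources, averaged -0.11 ± 0.05 on the 4 CFTR arrays and -0.14 ± 0.02 on the 7 vector arrays (mean ± SD), and the groups overlapped (exact two-sided permutation p = 0.12, adjusted p = 0.37 over the 3 pairs). The means differed by 0.04. ENO1 minus ENO2 averaged -0.16 ± 0.03 on the CFTR arrays and -0.12 ± 0.09 on the vector arrays (exact permutation p = 0.44, adjusted p = 0.65). Against vector codes 11 to 14 alone the groups did not overlap. The CFTR arrays were at -0.20 to -0.13 and these vector arrays at -0.11 to 0.01. The difference of -0.10 did not pass after adjustment (exact permutation p = 0.029, adjusted p = 0.086). Over the 70 splits into 2 groups of 4 no lower p is possible, so that this pair alone could not have passed. TDH1 minus TDH3 averaged -0.59 ± 0.10 on the CFTR arrays and -0.68 ± 0.37 on the vector arrays (exact permutation p = 0.69, adjusted p = 0.69). In this last pair vector replicates 1 and 2 stood at -1.26 and -1.11 and the other vector arrays between -0.60 and -0.23, so that TDH1 was lower on these arrays by more than TDH3 was. The 330 splits of all 11 arrays allow a p of 0.0030 at the least.

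**Figure D4:**
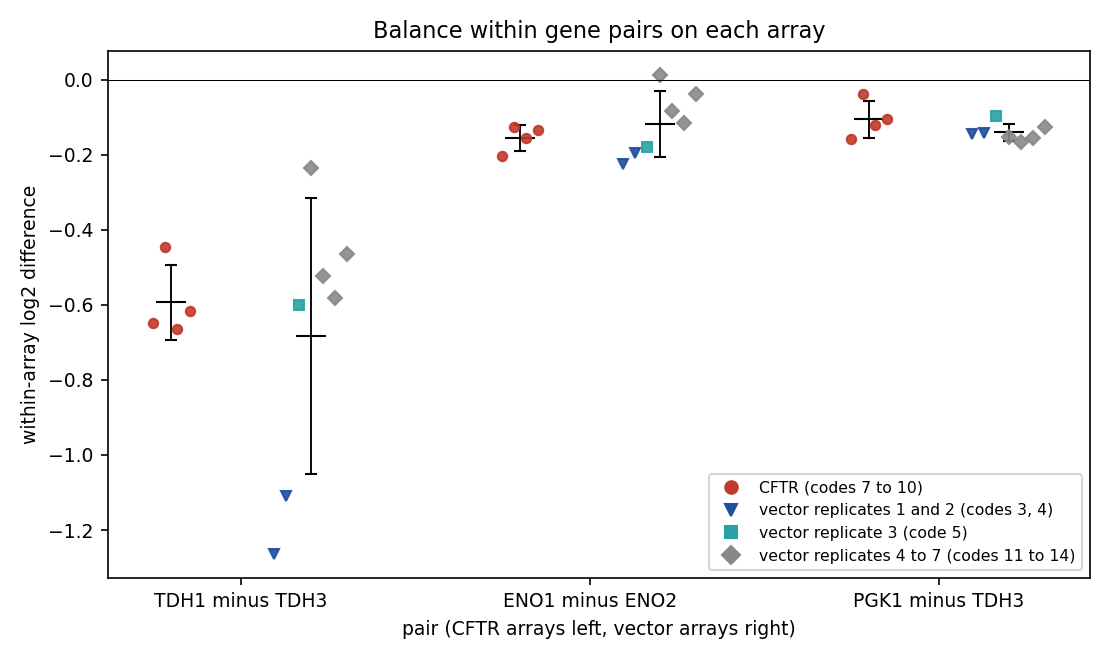
Within-array log2 difference (vertical axis) for 3 gene pairs on the CFTR arrays, left of each pair, and the vector arrays, right of it, with group mean and SD. The groups overlap in all 3 pairs when all 7 vector arrays are taken, and vector replicates 1 and 2 stand low in TDH1 minus TDH3.

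The other genes of the pathway were followed through 7 lists with 43 genes, of which 41 were measured. None passed in either direction with all 11 arrays counted equally (limma, adjusted p under 0.05), beside 0.918% of all genes. At an unadjusted p under 0.05 the count was 5 of 41, beside 18.2% of all genes. With array weights 12 rose and 8 fell, beside the 60.7% of all genes that passed, and without vector replicate 3 alone 2 rose and 1 fell, beside 9.56% of all genes. The list medians were 0.13 for the 7 genes of upper glycolysis, 0.14 for 5 of lower glycolysis and 0.07 for 7 of fermentation. They were 0.05 for 4 genes of glycerol synthesis, 0.01 for 7 of acetate metabolism and -0.10 for 5 of gluconeogenesis and fructose 2,6-bisphosphate. The 7 regulators, a list that also holds HXK2, had a median of -0.05. All genes tested had a median of -0.04. The measured genes of the lower glycolysis list were GPM1, GPM2, GPM3, PYK2 and ERR3. Its median is the difference of ERR3, and this size is uncertain. The ERR3 means, -1.91 in CFTR and -2.05 in vector arrays, are dimmer than the background limit of -1.17. FBP1, of the gluconeogenesis list, was also dimmer than this limit, with -3.08 in CFTR and -3.03 in vector arrays.

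In upper glycolysis HXK2, the main hexokinase, averaged 3.39 ± 0.03 over the CFTR arrays and 3.29 ± 0.12 over the vector arrays (SD; limma, adjusted p = 0.46). PGI1, phosphoglucose isomerase, had a log2 difference of 0.03 (SE 0.10; limma, adjusted p = 0.90). The phosphofructokinase subunits PFK1 and PFK2 had 0.13 (SE 0.06; limma, adjusted p = 0.31) and 0.04 (SE 0.07; limma, adjusted p = 0.82). PFK1 and HXK2 had CFTR means above those of vector codes 11 to 14 as well, by 0.12 and 0.06 on the log2 scale, and neither passed there (limma, adjusted p = 0.061 and 0.27). With array weights PFK1 rose by 0.12 (limma, adjusted p = 0.0077). In lower glycolysis GPM1, phosphoglycerate mutase, had 0.06 (SE 0.13; limma, adjusted p = 0.86), and it fell with array weights (-0.11; limma, adjusted p = 0.033). ADH1, the main alcohol dehydrogenase of fermentation, had 0.07 (SE 0.11; limma, adjusted p = 0.76).

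Several other genes of the lists varied widely among the arrays, and those named here were chosen for this after their values were seen. HXK1, the hexokinase known to be repressed by glucose, was at 2.76 to 3.01 on the CFTR arrays, at 1.40 on both vector replicates 1 and 2 and at 2.83 to 3.02 on vector replicates 3 to 7. PFK27, an enzyme that makes fructose 2,6-bisphosphate, went the other way, with -0.27 to -0.07 in CFTR, 1.14 and 1.02 in vector replicates 1 and 2 and -0.44 to -0.28 in the others. GPD2, of glycerol synthesis, had -1.35 to -0.71 in CFTR, 0.87 and 0.85 in vector replicates 1 and 2, and -1.50 to -0.74 in the others. Vector replicates 1 and 2 thus stood apart from the other arrays in both directions in these genes.

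PDC5, a second pyruvate decarboxylase that is known to be raised when thiamine is short or PDC1 is lost, split the vector arrays by code. It was at 1.33, 1.30, 1.14 and 1.04 in CFTR replicates 1 to 4, at 1.07 to 1.14 in vector codes 3 to 5 and at 3.74, 2.13, 3.40 and 2.31 in vector replicates 4 to 7. The main isoform PDC1 was at 3.96 to 4.05 in these 4 arrays and at 3.84 to 3.96 in CFTR. ADH4, an alcohol dehydrogenase known to be induced when zinc is short, was at 2.14 to 3.56 in CFTR, 0.74 to 1.50 in vector codes 3 to 5 and 3.48 to 3.78 in vector codes 11 to 14.

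Against vector codes 11 to 14 alone 9 of the 41 pathway genes passed, 4 as higher and 5 as lower in CFTR, beside the 43.9% of all genes. The higher ones were ADH5 (log2 difference 0.75), GPM3 (0.61), EMI2 (0.57) and GPD2 (0.43). The size for GPD2 is uncertain, since its mean on these vector arrays, -1.32, is dimmer than the background limit. The lower ones were PDC5 (-1.69), MIG1 (-0.83), PCK1 (-0.56), TYE7 (-0.41) and GPM1 (-0.12), with limma adjusted p between 0.00035 and 0.045 over the 9. MIG1 encodes a repressor of glucose-repressed genes and PCK1 the gluconeogenic PEP carboxykinase. Without vector replicates 1 and 2, 1 of the 41 passed, beside 18.4% of all genes. This was GPM3, as higher (log2 difference 0.50; limma, adjusted p = 0.039).

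**Figure D5:**
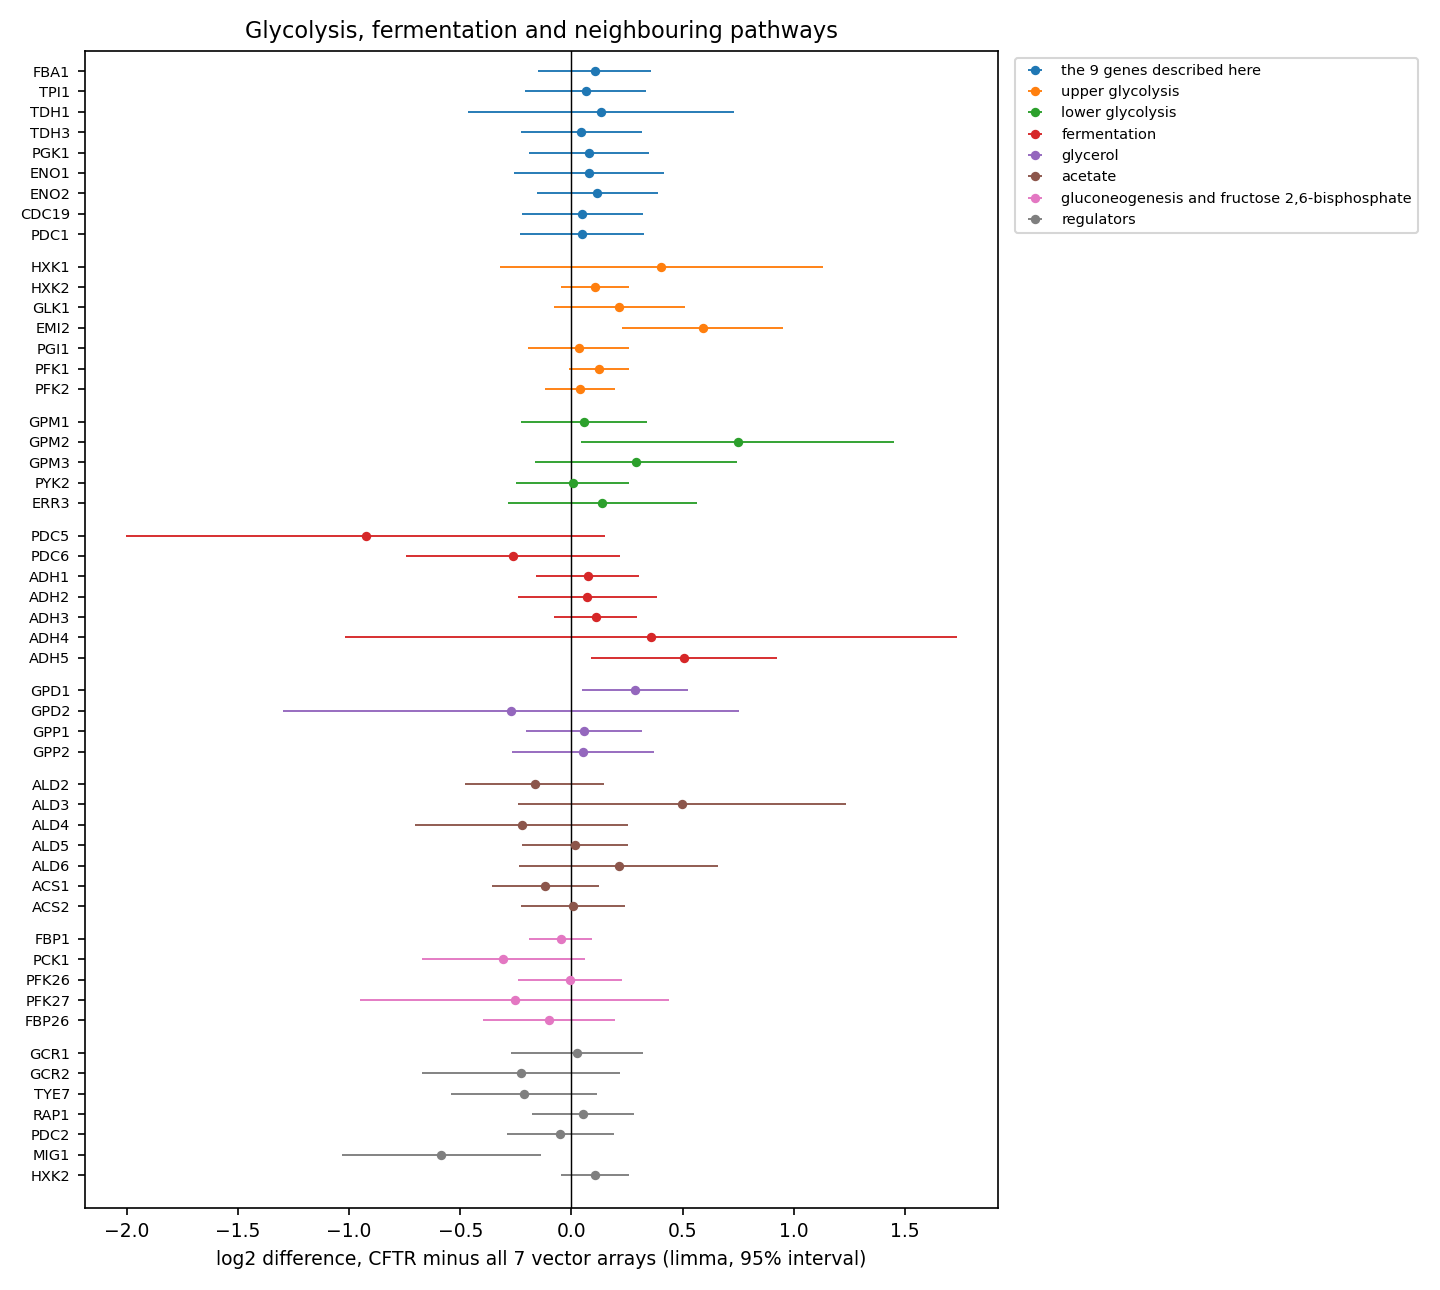
Log2 difference of CFTR minus all 7 vector arrays (horizontal axis, limma with 95% interval) for the 9 genes and the other measured genes of the pathway lists, by colour. None passes after adjustment, and the minor isoforms PDC5, ADH4 and GPD2 have the widest intervals.

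Of the regulators, TYE7 encodes an activator of glycolytic genes and had 1.20, 1.50, 1.54 and 0.98 in CFTR replicates 1 to 4, against 1.22, 1.14, 1.41, 1.78, 1.62, 1.74 and 1.71 in vector replicates 1 to 7. The groups overlapped (log2 difference -0.21, SE 0.15; limma, adjusted p = 0.48), and TYE7 fell against codes 11 to 14, as given above, and with array weights (limma, adjusted p = 0.016). GCR1 had a log2 difference of 0.03 (SE 0.14; limma, adjusted p = 0.94) and RAP1 of 0.05 (SE 0.10; limma, adjusted p = 0.83). With array weights both rose, GCR1 by 0.20 (limma, adjusted p = 0.049) and RAP1 by 0.15 (limma, adjusted p = 0.013). GCR2 had -0.23 (SE 0.20; limma, adjusted p = 0.59), and this size is uncertain because the CFTR mean of -1.36 is dimmer than the background limit. Transcript levels of these factors say nothing of their activity.

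The genes whose levels followed TDH3 most closely over the 11 arrays, among 4111 above the background limit, were CCW12, a cell wall protein gene (Pearson r = 0.995), TEF2, a translation elongation factor gene (0.992), and GPM1 (0.991). For PGK1 they were GPM1 (0.995), RPL1B, a ribosomal protein gene (0.995), and TIF2, a translation initiation factor gene (0.992). TEF2, RPL1B and TIF2 each have a near-identical copy whose signal may be shared. All the other 8 members had r of at least 0.946 with TDH3 and 0.957 with PGK1. Genes on an array share its scaling, and vector replicates 1 and 2 stand apart from the other arrays. Over the other 9 arrays r with TDH3 was 0.967 for CCW12, 0.962 for TEF2 and 0.955 for GPM1. The r with PGK1 was 0.969 for GPM1, 0.937 for RPL1B and 0.910 for TIF2. The closest 3 also changed: for TDH3 they were then CCW12, TEF2 and YDR524C-B (0.960). For PGK1 they were GPM1, HOM6 (0.957) and GCN4 (0.951). The members' r over these 9 arrays ranged from 0.682 to 0.95 with TDH3 and from 0.682 to 0.924 with PGK1.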

How the data were processed

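Per the labels' protocols, RNA came from hot phenol extraction and column cleanup and was made into labelled cRNA with an Affymetrix 3' IVT kit. The authors' deposited table gives linear intensity per probe set, and each of its 11 columns averages 1 over 10715 probe sets. The sources used here do not say how background was corrected or probes were summarised. A scaling to the mean hides changes in total RNA and ties each value to the bright end of its array.

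Gene names came from the platform annotation, updated by gene identifier with the R64 gene table. The brightest probe set stood for each of 47 genes with several, which left 5449 genes. Intensities were log2-transformed and CFTR compared with vector by limma 3.58.1 in R 4.3.3 with an intensity trend and Benjamini-Hochberg adjustment over all genes. Pairs were compared by exact permutation. The background limit is the 95th percentile of unmatched probe sets. Scripts were tested on simulated data.

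The members and lists were chosen with earlier results of these data known. Named genes are all members, HXK2, PGI1, PFK1, PFK2, GPM1, ADH1, GCR1, GCR2, TYE7 and RAP1 whatever their p, list genes past the threshold, and the 3 genes most like TDH3 and PGK1. Vector replicate numbers come from the labels. CFTR numbers follow the order of deposition. Alternatives covered scaling, variance model, array weights, dim genes, control arrays, near-copy arrays and single arrays left out. Averaging of near-copy arrays joined vector replicate 1 with 2 and replicate 5 with 7. Figures used matplotlib 3.10.9 in Python 3.11.15.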

Additional observations from a re-analysis of the deposited data

Results flagged for a closer look

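ADH1 on vector replicate 2 stood at 3.40 (log2 scaled intensity), far below the other vector arrays at 3.77 to 4.002. The gap was 0.605 of the range of the 7 arrays. It was the only such value among 46 groups of values examined for a lone far sample, where chance flags about 1 in 20. Of the 9 glycolytic genes none had a lone far array, since vector replicates 1 and 2 were low together.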

How the results depend on the processing

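No paired analysis was possible because the CFTR arrays carry no replicate number in the labels, and no pair with TDH2 was run, since it had no named probe set. The count of the 9 genes called was 0 with all arrays and 0 to 0 with each array left out in turn, and it became 5 with array weights and 6 against vector codes 11 to 14. The count over all genes, 50, became 200 after quantile normalization, 173 after median centring, 5 after centring on the 99th percentile, 3310 with array weights, 1 against codes 3 to 5, 2393 against codes 11 to 14, 1 with the near-copy arrays averaged, 1002 without vector replicates 1 and 2, and 313 by groups that do not overlap. With 1 array left out it ranged from 2 to 521, the highest without vector replicate 3. Centring on the 99th percentile and leaving out both vector replicates 1 and 2 were chosen after seeing the data. All 9 genes turned sign under at least 1 setting, and the cause was not tested. With array weights the differences that turned sign were TDH1 -0.20, TDH3 -0.12, PGK1 -0.072, FBA1 -0.042, TPI1 -0.077, ENO1 -0.12, ENO2 -0.049, CDC19 -0.11, PDC1 -0.12, PGI1 -0.066, PFK2 -0.0023, GPM1 -0.11 and ADH1 -0.056. Against vector codes 11 to 14 the differences that turned sign were TDH1 -0.27, TDH3 -0.13, PGK1 -0.081, FBA1 -0.037, TPI1 -0.096, ENO1 -0.14, ENO2 -0.045, CDC19 -0.12, PDC1 -0.12, PGI1 -0.094, PFK2 -0.020, GPM1 -0.12, ADH1 -0.024 and TDH1 minus TDH3 -0.14. Without vector replicates 1 and 2 the differences that turned sign were TDH1 -0.21, TDH3 -0.10, PGK1 -0.067, FBA1 -0.035, TPI1 -0.088, ENO1 -0.11, ENO2 -0.035, CDC19 -0.10, PDC1 -0.10, PGI1 -0.088, PFK2 -0.018, GPM1 -0.10, ADH1 -0.029, GCR2 0.023 and TDH1 minus TDH3 -0.11. After quantile normalization the differences that turned sign were TDH3 -0.015, TPI1 -0.034, CDC19 -0.023, PDC1 -0.016, PGI1 -0.037, PFK2 -0.043 and GPM1 -0.023. After centring on the 99th percentile the differences that turned sign were TDH3 -0.011, CDC19 -0.0065, PDC1 -0.0065, PGI1 -0.024, PFK2 -0.018, GPM1 -0.00019, GCR1 -0.030 and RAP1 -0.0026. Against vector codes 3 to 5 the differences that turned sign were GCR1 -0.13, TYE7 0.047, RAP1 -0.046 and ENO1 minus ENO2 0.045. With 1 array left out at a time the ranges were TDH1 -0.012 to 0.24, TDH3 -0.028 to 0.081, TPI1 -0.0085 to 0.097, ENO1 -0.0036 to 0.12, CDC19 -0.021 to 0.082, PDC1 -0.026 to 0.084, PGI1 -0.025 to 0.064, GPM1 -0.017 to 0.092, GCR1 -0.028 to 0.10, TDH1 minus TDH3 -0.0079 to 0.16, ENO1 minus ENO2 -0.056 to -0.016 and PGK1 minus TDH3 0.013 to 0.053. PGK1 minus TDH3 kept its sign and its side of the threshold in every alternative run for it. Against codes 3 to 5 or codes 11 to 14 the splits were too few for 1 pair alone to pass. These probe sets are among the brightest, and saturation was not tested.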
